A study of Mus musculus with 16 samples.

Results

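At day 2 after crystalline silica (CS) was placed in the airways, the lungs of BLT1+/+ mice were compared with lungs given phosphate-buffered saline (PBS). The comparison holds 4 of the 16 arrays of the series, found by their titles: 3 arrays of single lungs titled BLT1+/+ with CS, and 1 array titled BLT1+/+ with PBS, made from RNA pooled from 3 mice. All 4 are wild type for BLT1 on a C57BL/6 background, without the KRasLA1 tumor allele, from mice 10 to 12 weeks old treated through the trachea and taken at day 2. Total RNA of whole lung was measured on Affymetrix whole-transcript arrays. Lungs of BLT1-/- mice at day 2 (3 CS lungs and 1 pool) and of BLT1+/+KRasLA1 mice at day 60 (3 CS lungs and 1 pool, each carrying the latent tumor allele) were compared with this response, and the BLT1-/- pool also served as an alternative control. The variance of each gene was estimated from the CS lungs of all 4 CS groups, which include BLT1-/-KRasLA1 lungs at day 60. The labels call the CS lungs biological replicates without naming animals, and the p-values therefore measure only how far these samples spread, which may be partly technical.

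Crystalline silica is taken up by alveolar macrophages but cannot be digested. Damaged phagosomes activate the NLRP3 inflammasome, which matures interleukin 1, and dying macrophages release the particles again. Epithelial cells and macrophages then call in neutrophils and monocytes through chemokines. BLT1, encoded by Ltb4r1, is the high-affinity receptor for leukotriene B4, a lipid that attracts neutrophils. In whole lung, fewer cells of a type and less RNA per cell cannot be told apart.

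The arrays carried the marks of lung. Sftpc (surfactant protein C of alveolar type 2 cells) stood at a log2 expression of 14.43 in the pool and at 14.35, 14.29 and 14.25 in CS replicates 1, 2 and 3, and Scgb1a1 of club cells, Ager of alveolar type 1 cells and Pecam1 of endothelium were likewise between 12.22 and 14.45 on all 4 arrays. None of these 4 genes passed the test (adjusted p from 0.44 to 0.992). All values below are on this log2 scale, on which 1 unit is a 2-fold difference, and lung values are always given in the order of replicates 1, 2 and 3. Ltb4r1 itself stood at 7.40 in the pool and at 7.56, 7.59 and 7.63 after silica, a difference of 0.20 ± 0.12 (standard error, SE; adjusted p = 0.562). On all 8 day 2 arrays Xist lay between 12.76 and 13.06 and Y-linked Eif2s3y between 4.27 and 4.53, so no day 2 array stood apart by sex-linked genes.

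Silica raised 170 and lowered 62 of 19938 genes in BLT1+/+ lungs. These are 0.853% and 0.311% of the genes tested, 1.16% in all, by limma at an adjusted p under 0.05. Of the risers 101 were up at least 2-fold, 29 at least 4-fold and 12 at least 8-fold, while 16 of the fallers were down at least 2-fold. The median difference was 1.07 for the risers and -0.80 for the fallers, against 0.02 over all genes, of which the 5th and 95th percentiles were -0.34 and 0.37. All 3 lungs lay on one side of the pool for every one of these 232 genes. That holds too for many genes not called, since 29.1% of all genes had all 3 lungs above the pool and 23.2% all below. The BLT1-/- pool also lay below all 3 lungs for 170 of the 170 risers and above them for 62 of the 62 fallers. These genes were chosen by the values of the same 3 lungs, so this is no independent check. The share of all genes with the BLT1-/- pool outside the 3 lungs was not counted.

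**Figure D1:**
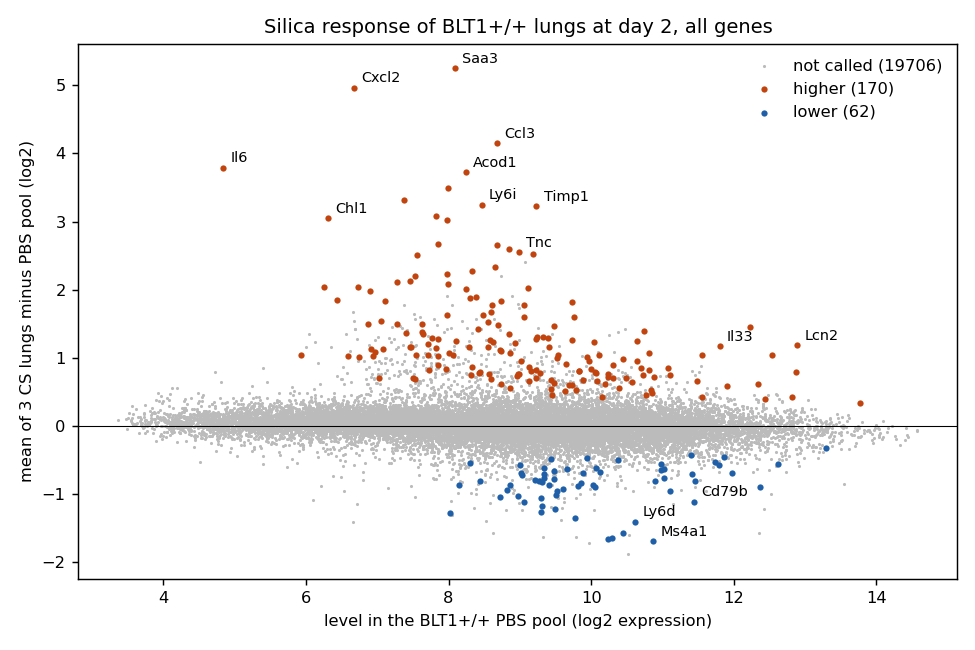
Each point is 1 gene, plotted by its log2 level in the BLT1+/+ PBS pool (horizontal) and the mean of 3 CS lungs minus the pool (vertical). The 170 genes called higher (red) reach 5.25 for Saa3, and the 62 called lower (blue) reach -1.69 for Ms4a1.

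The control is 1 array, and its variance was taken to be that of a CS lung. Leaving out CS replicate 1 gave 463 higher and 222 lower genes, leaving out replicate 2 gave 50 and 15, and leaving out replicate 3 gave 63 and 14. With the replicate number as a block the counts were 474 and 256. Against the BLT1-/- pool in place of the BLT1+/+ pool, 322 genes were higher and 74 lower, and 132 of the 170 risers but only 22 of the 62 fallers were among them. In all, 44 risers and 4 fallers stayed past the threshold in every one of these fits: against either pool, against their mean, and without each CS lung in turn. The risers among them included Saa3, Lcn2, Cxcl2, Ccl3, Ccl2, Il6, Il33, Acod1, Timp1, Tnc, Slc7a11, Cd14 and Socs3, and the 4 fallers were Arhgap15, Btla, Gask1b and Ly6d.

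The largest rises were in an acute phase protein, chemokines and interleukin 6. Saa3, a serum amyloid A made in tissues outside the liver, stood at 8.09 in the pool and at 13.28, 13.31 and 13.43 in the lungs, a 38-fold rise (5.25 ± 0.31, adjusted p = 2.93e-06). The 3 lungs nearly coincided, far above the pool. Of 17 acute phase genes measured, 7 rose and 0 fell, with a median of 0.80 (0.50 against the BLT1-/- pool). Lcn2 (lipocalin 2, which binds bacterial siderophores) went from 12.89 to 14.04, 14.05 and 14.15, a smaller but very even rise of 1.19 ± 0.07 (adjusted p = 2.93e-06). Orm1 (an acid glycoprotein of plasma) stood at 7.82 and then at 10.45, 10.68 and 11.62, with the third lung highest (3.09 ± 0.44, adjusted p = 0.00719). Lrg1, a leucine-rich glycoprotein of plasma, rose by 1.39 ± 0.17 with all lungs between 12.09 and 12.22. Orm2 (2.11), Serpina3n (1.04) and Itih4 (1.04) also rose, with adjusted p from 0.0578 to 0.0626 without replicate 3 and, for Orm2 and Serpina3n, 0.0698 and 0.068 without replicate 2. The other 10 members did not pass, among them Saa1 at 0.80, Hp (haptoglobin) at 0.26 and Fgb at -0.14.

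**Figure D2:**
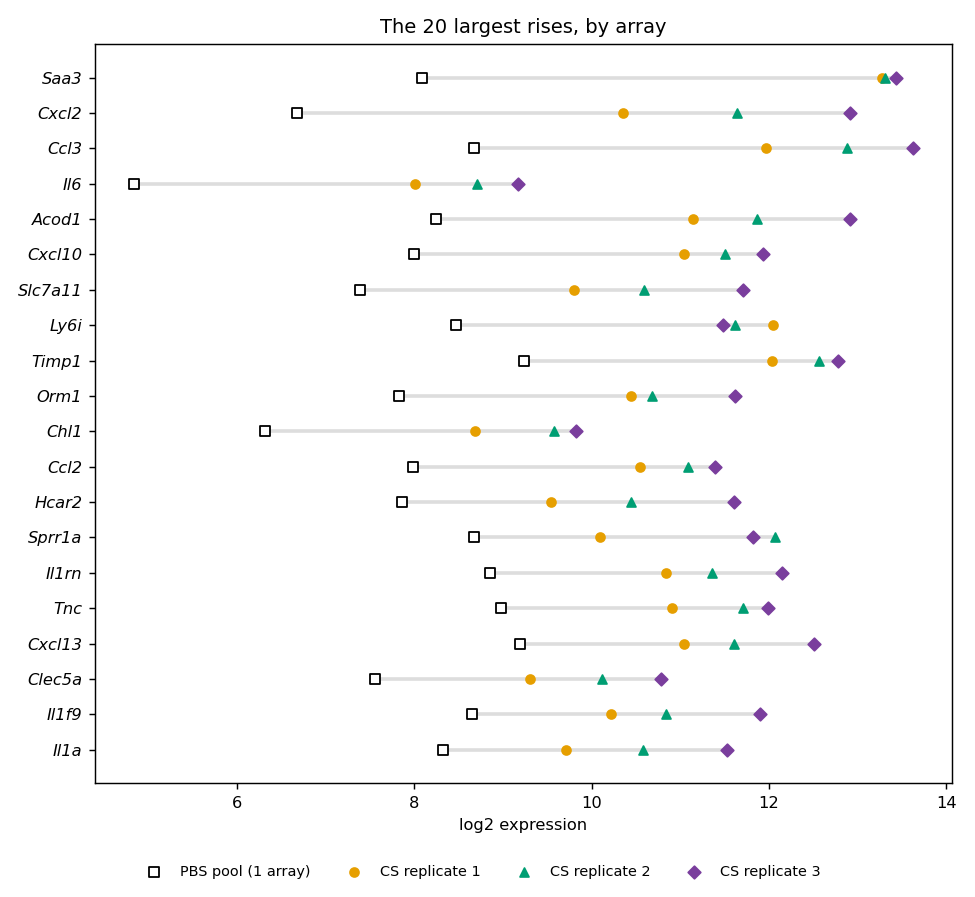
Log2 expression (horizontal) of the 20 genes with the largest rises in the PBS pool (open square) and in CS replicates 1 (circle), 2 (triangle) and 3 (diamond). All 3 lungs lie to the right of the pool for each gene, and replicate 1 is mostly the nearest to it. Ly6i runs the other way, with replicate 1 at 12.05 and replicate 3 at 11.48.

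The promoters of 4 of these genes are shown because factors of the NF-kB and C/EBP families are classical activators of acute phase and chemokine genes. All 4 held a match to the motif marked in them. Each is 250 bases before to 50 bases after the start of the gene in RefSeq (GRCm38.p6), printed 5′ to 3′ on the strand of the gene, with matches to 1 motif in capitals. Capitals mark the NF-kB motif (GGG, any 3 bases, then TTCC) in the first 3 and TTNNGCAA (C/EBP) in the last, searched on both strands; no protein binding was measured here.
Cxcl2, chr5:90903649-90903948, + strand: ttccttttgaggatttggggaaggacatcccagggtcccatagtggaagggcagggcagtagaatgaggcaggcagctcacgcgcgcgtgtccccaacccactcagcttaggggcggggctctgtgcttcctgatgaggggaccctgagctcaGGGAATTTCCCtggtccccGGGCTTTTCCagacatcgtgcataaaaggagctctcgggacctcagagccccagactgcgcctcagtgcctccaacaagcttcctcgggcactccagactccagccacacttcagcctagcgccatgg
Il6, chr5:30012864-30013163, + strand: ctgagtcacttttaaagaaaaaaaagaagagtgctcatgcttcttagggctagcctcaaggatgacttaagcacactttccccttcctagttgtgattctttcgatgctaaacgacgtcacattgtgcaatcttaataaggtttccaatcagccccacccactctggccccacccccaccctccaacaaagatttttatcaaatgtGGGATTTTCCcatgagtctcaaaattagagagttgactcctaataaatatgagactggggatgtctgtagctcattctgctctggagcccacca
Cxcl10, chr5:92348840-92349139, - strand: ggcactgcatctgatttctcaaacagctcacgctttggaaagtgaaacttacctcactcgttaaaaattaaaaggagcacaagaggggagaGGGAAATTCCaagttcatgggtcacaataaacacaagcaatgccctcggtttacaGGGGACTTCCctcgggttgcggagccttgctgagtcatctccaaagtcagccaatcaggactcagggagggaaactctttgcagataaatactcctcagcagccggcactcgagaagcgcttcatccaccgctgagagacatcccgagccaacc
Saa3, chr7:46715627-46715926, - strand: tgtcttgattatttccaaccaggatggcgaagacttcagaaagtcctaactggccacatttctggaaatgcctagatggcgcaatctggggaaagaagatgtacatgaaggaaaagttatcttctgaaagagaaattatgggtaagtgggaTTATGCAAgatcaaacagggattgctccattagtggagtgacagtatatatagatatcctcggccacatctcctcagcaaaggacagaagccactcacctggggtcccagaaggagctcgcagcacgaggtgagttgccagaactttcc

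The Cxcl2 promoter held NF-kB matches that began 97, 96 and 78 bases before the start, the first 2 of them overlapping on opposite strands. In Il6 the match began 44 bases before the start, and in Cxcl10 the matches began 159 and 104 bases before it. Saa3 had no NF-kB match but a C/EBP match 99 bases before its start, and Il6 had a C/EBP match as well, 128 bases before. Promoters were found for 16 of the 20 genes with the largest rises. The NF-kB motif was in 4 of these 16 (Cxcl2, Il6, Cxcl10 and Il1rn) and in 5.56% of all 32851 mouse promoters of that length. The C/EBP motif was in 4 (Saa3, Il6, Slc7a11 and Cxcl13) against 10.8% of all promoters, and TGANTCA, the AP-1 motif, in 5 against 7.81%. TGACNNNGC (antioxidant element) was in 3 against 12.4% and TTTGAA (cell cycle homology region) in 1 against 17.9%. Ccl3, Acod1 and Timp1, also among the largest rises, had no match to any of these motifs. These matches are descriptions of letters, not of sites in use.

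Some chemokines for neutrophils and for monocytes rose. Of 9 genes listed as CXC chemokines that attract neutrophils, 4 rose and 0 fell. The list also holds the receptor Cxcr2, whose own value (0.64 ± 0.51, adjusted p = 0.724) was the list's median. The median was only 0.02 against the BLT1-/- pool and 0.17 against the mean of both pools. In BLT1-/- lungs against their own pool it was -0.03. Cxcl2 (MIP-2) stood at 6.67 in the pool and at 10.35, 11.64 and 12.92 in the lungs, a 31.2-fold rise (4.96 ± 0.69, adjusted p = 0.00596) and also the widest range between lungs of any named gene. Cxcl5, a chemokine of alveolar epithelium, went from 6.25 to 7.96, 8.64 and 8.24 (2.03 ± 0.30, adjusted p = 0.00801). Cxcl3 reached 7.96, 8.55 and 9.80 from 6.74 (2.03 ± 0.45, adjusted p = 0.0488), and Cxcl1 (KC) rose by 1.07 ± 0.23 (adjusted p = 0.0424). The platelet chemokine Ppbp, also in this list, was at -0.67 and did not pass. Cxcl1 and Cxcl3 missed the threshold against the BLT1-/- pool (adjusted p = 0.0652 and 0.0761) and without replicate 2 (0.113 and 0.0994), and Cxcl1 also without replicate 3 (0.104).

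Of 15 CC chemokines, 4 rose and 1 fell, with a median of 0.79 and 14 of 15 having all lungs above the pool. Ccl3 (MIP-1α) stood at 8.67 in the pool and at 11.96, 12.88 and 13.62 after silica, a 17.8-fold rise (4.15 ± 0.45, adjusted p = 0.000851). Ccl2 (MCP-1), the main ligand of CCR2 on monocytes, went from 7.98 to 10.54, 11.08 and 11.39 (3.02 ± 0.44, adjusted p = 0.00748). Its neighbour in function Ccl7 rose by 2.23 ± 0.41 and Ccl20, a ligand of CCR6, by 1.29 ± 0.27. Ccl4 was at 1.46 ± 0.38 and missed the threshold (adjusted p = 0.0855). Ccl5, a product of T and NK cells, fell by 0.81 on the log2 scale (adjusted p = 0.0273), from 10.90 to 10.29, 10.06 and 9.93. Among 9 other CXC and CX3C chemokines 2 rose: Cxcl10 of the interferon response, from 7.99 to 11.04, 11.50 and 11.93 (3.50 ± 0.64, adjusted p = 0.0212), and the B cell attractant Cxcl13, from 9.19 to 11.04, 11.60 and 12.50 (2.53 ± 0.38, adjusted p = 0.00812). Without replicate 2, and again without replicate 3, Cxcl10 (adjusted p = 0.0712 and 0.0693), Ccl7 (0.0712 and 0.0664) and Ccl5 (0.0761 and 0.0742) missed the threshold, as did Ccl20 without replicate 3 (0.0867) and against the BLT1-/- pool (0.0554).

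Of 26 inflammatory cytokines 7 rose and 0 fell, with a median of 0.20 (0.11 against the BLT1-/- pool). Il6, the main inducer of acute phase proteins, stood at 4.84 in the pool and at 8.01, 8.70 and 9.17 in the lungs, a 13.8-fold rise (3.79 ± 0.38, adjusted p = 0.000851). Members of the interleukin 1 family rose on both the activating and the inhibiting side. Il1a went from 8.32 to 9.71, 10.58 and 11.52 (2.28 ± 0.43, adjusted p = 0.0273), and Il1rn, the antagonist of its receptor, from 8.85 to 10.84, 11.36 and 12.14 (2.59 ± 0.36, adjusted p = 0.00596). Il33, an alarmin stored in nuclei of alveolar type 2 cells, rose evenly from 11.80 to 12.79, 13.01 and 13.12 (1.17 ± 0.12, adjusted p = 0.000851). Tnf stood at 7.53 and then at 9.06, 9.71 and 10.42 (2.21 ± 0.39, adjusted p = 0.0189), Osm (oncostatin M) rose by 1.37 and Csf1, a growth factor of macrophages, by 1.01. Il1b was at 1.42 ± 0.48, with lungs at 10.89, 12.05 and 12.77 against 10.48, and did not pass (adjusted p = 0.195; without replicate 1 it did, at 0.0047). Il1f9 (interleukin 36 gamma), which is outside the list, rose from 8.64 to 10.21, 10.84 and 11.90 (2.34 ± 0.49, adjusted p = 0.0395). Without replicate 2 the calls of Tnf, Il1a, Osm, Csf1 and Il1f9 were lost (adjusted p from 0.065 to 0.0907). Against the BLT1-/- pool those of Tnf, Osm and Il1f9 were lost (0.0601, 0.13 and 0.0945), and without replicate 3 that of Il1f9 (0.0578).

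Receptors that sense particles and microbial products rose as well: 4 of 19 inflammasome and pattern receptor genes were higher and 0 lower, with a median of 0.78. Clec5a, a lectin receptor of myeloid cells, went from 7.56 to 9.30, 10.12 and 10.78 (2.51 ± 0.38, adjusted p = 0.00825). Msr1, a scavenger receptor through which macrophages bind silica, rose by 1.88 ± 0.36, Cd14 by 1.82 ± 0.27 and Tlr2 by 1.30 ± 0.24. Nlrp3, the sensor of the inflammasome, was at 1.23 ± 0.38 (adjusted p = 0.153) with lungs at 8.03, 8.66 and 9.40 against 7.47, and Casp1, its protease, at -0.21. Without replicate 2 the calls of Msr1 and Tlr2 were lost (adjusted p = 0.0829 and 0.0698), that of Msr1 also without replicate 3 (0.0803), while Nlrp3 passed without replicate 1 (0.0145). Hcar2, a receptor of nicotinic acid on macrophages and neutrophils, rose from 7.86 to 9.54, 10.45 and 11.61 (2.67 ± 0.52, adjusted p = 0.0286; 0.0761 without replicate 2). Acod1, the enzyme that makes itaconate in activated macrophages, rose 13.2-fold, from 8.25 to 11.14, 11.86 and 12.91 (3.73 ± 0.58, adjusted p = 0.00915). Of the 7 genes listed with it, Acod1 alone passed, and Arg1 was at 1.78 ± 0.62 (adjusted p = 0.213).

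The genes listed as NF-kB feedback genes were all above the pool in every lung, 15 of 15, with a median of 0.52. Of these 4 passed: Socs3, the inhibitor of interleukin 6 signalling (9.32 in the pool, then 10.38, 10.64 and 10.88; 1.31 ± 0.20, adjusted p = 0.00812), Bcl3 (0.91), Nfkbiz (0.68) and Nfkb2 (0.61). Only Socs3 of the 4 kept its call without replicate 2, without replicate 3 and against the BLT1-/- pool, where the other 3 had adjusted p from 0.0637 to 0.117. The interferon response genes showed 20 of 20 with all lungs above the pool and a median of 0.71, yet 0 of 20 passed. The highest of them, Rsad2 (viperin), was at 1.79 ± 0.55 (adjusted p = 0.152), Mx2 at 0.95 (0.109) and Ifit3 at 0.88 (0.123). Against the BLT1-/- pool Mx2 and Ifit3 passed (adjusted p = 0.0403 and 0.0239).

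Little moved among the enzymes and receptors of leukotrienes and prostaglandins, the pathway of BLT1. Of 19 measured genes 1 rose, Ptges, which makes prostaglandin E2, from 9.99 to 10.53, 11.00 and 10.97 (0.84 ± 0.16, adjusted p = 0.0285; 0.0829 without replicate 2 and 0.0864 without replicate 3). Ptgs2 (COX-2) was at 1.09 ± 0.35 (adjusted p = 0.169), and passed without replicate 1 (0.00646). The leukotriene enzymes Alox5 (0.13), Alox5ap (0.17), Lta4h (-0.11) and Ltc4s (-0.07) did not pass. Of 13 complement genes only Cfb, factor B of the alternative pathway, rose, from 9.06 to 10.87, 10.78 and 10.84 (1.77 ± 0.25, adjusted p = 0.00596). C3ar1, the receptor of C3a, was at 1.45 ± 0.34 (adjusted p = 0.0576; 0.0392 without replicate 1).

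Most markers of neutrophils did not pass the test. Of 18 such markers 1 rose, Cd177, a surface protein of neutrophils, from 8.86 to 9.81, 10.00 and 10.01 (1.07 ± 0.20, adjusted p = 0.0212; 0.0712 without replicate 2, 0.0658 without replicate 3 and 0.0652 against the BLT1-/- pool). The abundant granule gene S100a8 stood at 11.56 in the pool and at 11.32, 11.96 and 12.31 in the lungs, so the lungs overlapped the pool (0.31 ± 0.50, adjusted p = 0.916). S100a9 behaved alike (0.23 ± 0.50), and Ly6g was at -0.08 ± 0.53. The list's median differed widely between lungs, at 0.00 in replicate 1, 0.34 in replicate 2 and 0.69 in replicate 3. Over the 3 lungs it was 0.30 against the BLT1+/+ pool and -0.12 against the BLT1-/- pool. Its summed level was 14.17 in the pool and from 14.16 to 15.01 in the lungs. Il1r2 (8.05 in the pool, then 8.66, 10.10 and 10.73) and Trem1 (8.86, then 8.94, 10.31 and 10.96) were high in replicates 2 and 3 alone. They did not pass (adjusted p = 0.131 and 0.362) but did without replicate 1 (0.000769 and 0.0124).

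Among 17 markers of monocytes and recruited macrophages 1 rose, Ms4a6d, by 1.24 ± 0.27 (adjusted p = 0.047; 0.122 without replicate 2 and 0.132 without replicate 3). Gpnmb was at 1.27 (adjusted p = 0.0744) and Cd68 at 0.81 (0.062). Their summed level was 15.34 in the pool and from 15.46 to 15.58 after silica. Of 15 alveolar macrophage markers F7, coagulation factor VII, rose by 0.70 ± 0.11 (adjusted p = 0.0111), Marco was at 0.90 and Fabp4 at -0.72, neither of which passed (adjusted p = 0.123 for each). Ly6i, a small surface protein of monocytes and macrophages, rose 9.48-fold from 8.47 to 12.05, 11.61 and 11.48 (3.25 ± 0.36, adjusted p = 0.00116), and was highest in replicate 1.

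Genes of cell division rose, with all 3 lungs above the pool for 26 of 26 genes of DNA replication and for 26 of 26 genes of mitosis. Of the replication genes 10 rose, with a list median of 0.77. Cdc6, which loads the helicase onto origins, stood at 7.08 in the pool and at 8.08, 8.41 and 8.14 in the lungs (1.13 ± 0.17, adjusted p = 0.00825). The helicase subunits Mcm2 (0.81), Mcm3 (0.79), Mcm4 (0.55), Mcm5 (0.82), Mcm6 (0.66) and Mcm7 (0.78) all rose, as did Ccne2 (1.37), Gins1 (1.03) and Uhrf1 (0.90). Of the mitosis genes 7 rose, with a list median of 1.37, the highest of the 53 lists. Ccna2 (cyclin A2) went from 8.74 to 10.30, 10.48 and 10.95 (1.83 ± 0.37, adjusted p = 0.0352), and the mitotic kinase Cdk1 from 8.61 to 10.12, 10.33 and 10.71 (1.78 ± 0.35, adjusted p = 0.03). Top2a, Plk1 and Mki67 rose by 1.63, 1.63 and 1.60, Ube2c by 1.43 and Aurkb by 1.27. Few of these calls were kept when replicate 2 or replicate 3 was left out. Without replicate 2, 1 of the 10 replication calls and 0 of the 7 mitosis calls were kept, and 2 and 0 without replicate 3. Against the BLT1-/- pool, 10 of the 10 and 5 of the 7 were kept. For Cdk1 the difference was 1.81 without replicate 2, 1.61 without replicate 3 and 1.91 without replicate 1 (adjusted p = 0.0793, 0.0916 and 0.013). The difference of Cdk1 thus did not shrink without replicate 2, though its call was lost. Genes of ribosome biogenesis had a median of 0.35 and 20 of 21 above the pool in all lungs, with 0 past the threshold (4 against the BLT1-/- pool).

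Some matrix genes of wound repair rose. Tnc (tenascin C, a matrix protein of healing wounds) stood at 8.98 in the pool and at 10.91, 11.71 and 11.99 after silica (2.55 ± 0.33, adjusted p = 0.00375). Of 17 genes of provisional matrix and collagens 4 rose, the others being the hyaluronan synthase Has2 (1.84 ± 0.39), the hyaluronan-binding Tnfaip6 (1.16 ± 0.19) and Col3a1 (0.57 ± 0.11), a fibrillar collagen. Timp1, an inhibitor of metalloproteases, rose 9.36-fold from 9.23 to 12.03, 12.57 and 12.77 (3.23 ± 0.34, adjusted p = 0.000851). Of 23 protease and fibrinolysis genes 5 rose and 0 fell: beside Timp1, the macrophage elastase Mmp12 (1.67 ± 0.30), Adamts4 (1.49 ± 0.26), the collagen-degrading cathepsin Ctsk (1.34 ± 0.19) and the urokinase Plau (1.05 ± 0.22). Mmp9, a gelatinase of neutrophils, was at 0.11. Without replicate 2 the calls of Has2, Tnfaip6, Adamts4, Mmp12 and Plau were lost (adjusted p from 0.051 to 0.113). Without replicate 3 those of Has2, Col3a1, Mmp12 and Plau were lost (0.0614 to 0.12), and against the BLT1-/- pool that of Adamts4 (0.0695). Growth factor regulators of the TGF-beta, activin and IGF families had 0 of 28 past the threshold (2 lower against the BLT1-/- pool), with Igfbp3 at -1.15 ± 0.27 (adjusted p = 0.0575; 0.0118 against the BLT1-/- pool and 0.0208 without replicate 1).

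Antioxidant genes moved unevenly. Slc7a11, the cystine importer that feeds glutathione synthesis, rose 9.95-fold from 7.38 to 9.80, 10.58 and 11.70 (3.31 ± 0.48, adjusted p = 0.00719). Of 17 NRF2 and antioxidant genes 4 rose and 1 fell: beside Slc7a11, Hmox1 (heme oxygenase 1) was higher by 1.26 ± 0.22, Gclc by 0.62 and the mitochondrial superoxide dismutase Sod2 by 0.59, while Cat (catalase) fell by 0.32 on the log2 scale (adjusted p = 0.0473). Of 6 metallothioneins and zinc transporters 2 rose: the zinc importer Slc39a14, a known target of interleukin 6, from 8.69 to 9.79, 10.30 and 10.43 (1.48 ± 0.21, adjusted p = 0.00672), and Mt2 by 1.45 ± 0.24. Mt1 was at 0.79 (adjusted p = 0.0681; 0.00893 without replicate 1). Hmox1, Sod2, Gclc and Mt2 missed the threshold without replicate 2 (adjusted p from 0.051 to 0.113), and Sod2 and Gclc also without replicate 3 (0.0578 and 0.12). Cat missed it without replicate 2 (0.1), without replicate 3 (0.138) and against the BLT1-/- pool (0.103). Glycolysis and hypoxia genes had a median of 0.40 and sterol synthesis genes of 0.26, with 0 of 12 and 0 of 13 past the threshold. Against the BLT1-/- pool these medians were 0.26 and 0.49, and 2 and 6 members were higher. Of 15 clock genes Cry1 (0.78) and Bhlhe40 (0.78) rose, both without a call when replicate 2 (adjusted p = 0.0742 and 0.117) or replicate 3 (0.0665 and 0.12) was left out, and Cry1 also against the BLT1-/- pool (0.0821), and Nr1d1 (REV-ERBα) was at -1.22 ± 0.31 (adjusted p = 0.0787; 0.0251 without replicate 1).

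Few members of the goblet cell and epithelial repair lists rose, and nearly all genes that define the epithelial cell types did not pass the test. Of 10 goblet cell and mucus genes 2 rose, and of 14 epithelial repair genes 2. Slc26a4 (pendrin, an anion exchanger of airway epithelium) went from 7.46 to 9.65, 9.50 and 9.62 (2.13 ± 0.23, adjusted p = 0.000851), and Slc5a1, a sodium and glucose cotransporter, from 8.11 to 9.27, 9.30 and 9.52 (1.25 ± 0.14, adjusted p = 0.00117). Sprr1a, a precursor of the cornified envelope, rose from 8.67 to 10.10, 12.06 and 11.82 (2.65 ± 0.50, adjusted p = 0.0273), with replicate 1 well below the other lungs. The BLT1-/- pool stood at 9.81 for Sprr1a, against which its adjusted p was 0.124, and it was 0.0698 without replicate 2 and 0.082 without replicate 3. Retnlb, a secreted product of goblet cells, also rose (1.05 ± 0.19), while the gel-forming mucins Muc5b (0.10) and Muc5ac (-0.04) did not pass. Retnlb had adjusted p of 0.117 against the BLT1-/- pool, 0.0698 without replicate 2 and 0.0637 without replicate 3. Of 16 alveolar type 2 genes and 13 alveolar type 1 genes 0 passed, with medians of -0.04 and -0.13. The type 2 median was 0.02 after quantile normalization. The type 1 median was 0.13 against the BLT1-/- pool, with 1 member called higher, and -0.0031 against the mean of both pools. Of 12 club cell genes Scgb3a2 fell by 0.70 on the log2 scale (adjusted p = 0.0167; 0.051 without replicate 2). Ciliated cell genes had a median of -0.29 (-0.046 against the BLT1-/- pool) with 0 of 15 past the threshold.

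**Figure D3:**
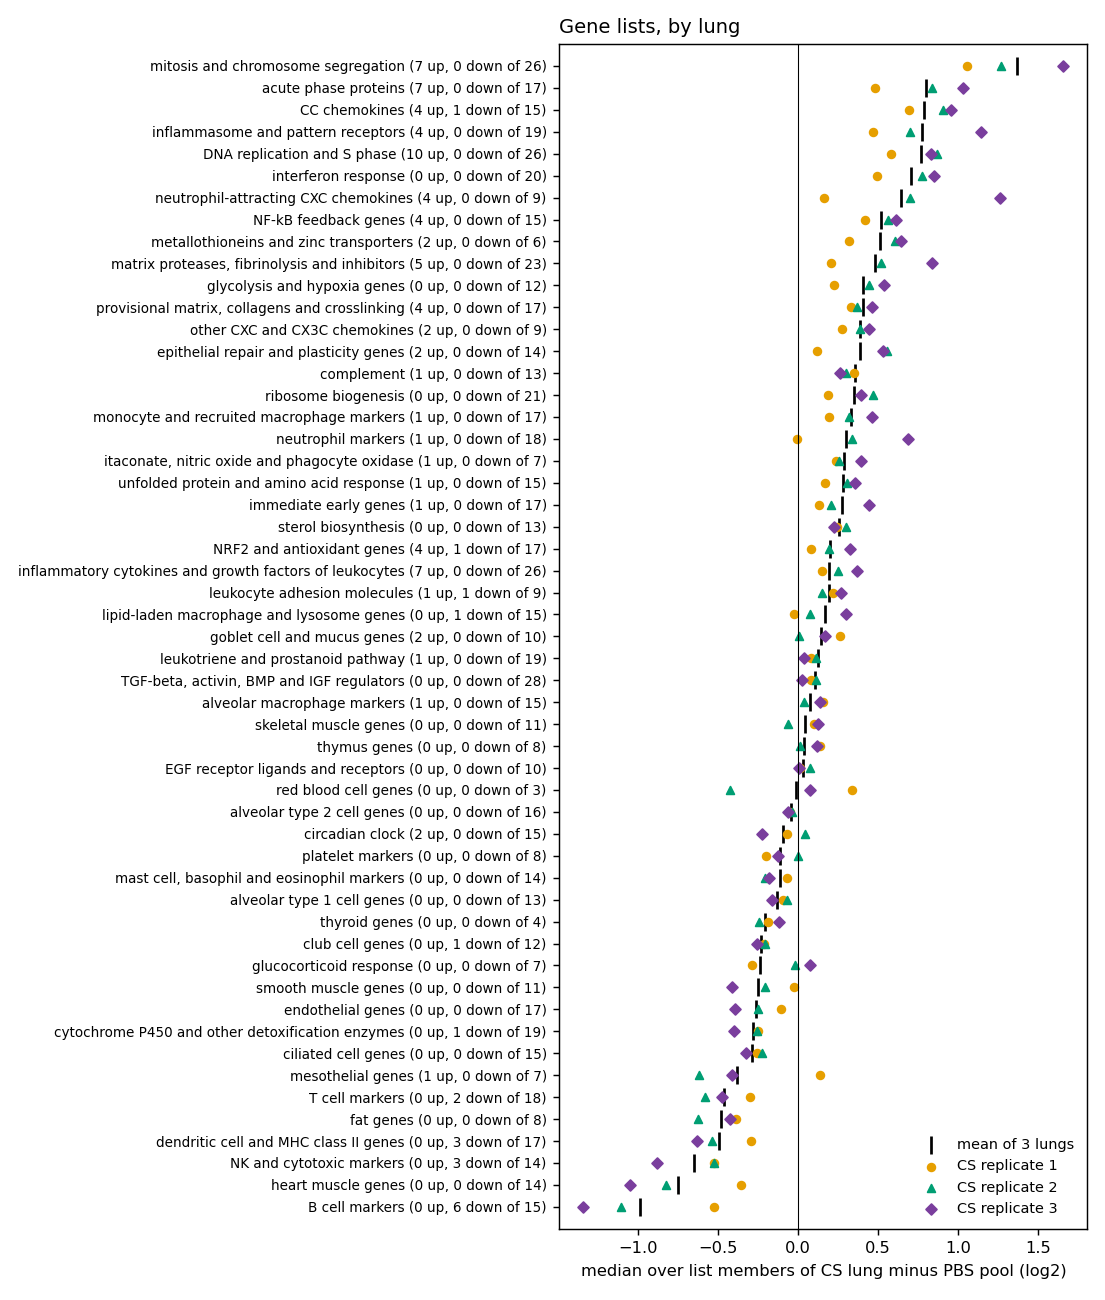
Median difference from the PBS pool (log2, horizontal) over the measured members of each of 53 gene lists, for the mean of the 3 lungs (vertical tick) and for CS replicates 1 (circle), 2 (triangle) and 3 (diamond); the labels give how many members were called higher and lower. Mitosis genes lie highest at 1.37 and B cell markers lowest at -0.98, and replicate 1 is nearest to 0 in most of the outer lists.

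Genes of lymphocytes fell. Of 15 B cell markers 6 fell and 0 rose, with a median of -0.98 and 14 with all 3 lungs below the pool. Ms4a1 (CD20) stood at 10.87 in the pool and at 9.71, 9.11 and 8.71 in the lungs, a 3.23-fold fall (-1.69 ± 0.30, adjusted p = 0.0189). The antigen receptor subunit Cd79a went from 10.23 to 9.10, 8.30 and 8.32 (-1.66 ± 0.35, adjusted p = 0.0399) and its partner Cd79b from 11.44 to 10.74, 10.15 and 10.10 (-1.11 ± 0.20, adjusted p = 0.0212). Bank1, a scaffold of B cell receptor signalling, changed by -1.65 ± 0.31, and Ly6d by -1.40 ± 0.22, with lungs at 9.37, 9.30 and 8.98 against 10.62. Cd22, an inhibitory receptor, fell by 1.01 on the log2 scale. The summed level of the B cell markers was 13.84 in the pool and from 12.58 to 13.16 in the lungs. Ly6d kept its call without each lung and against the other pool. Without replicate 2 the calls of Ms4a1, Cd79a, Cd79b, Bank1 and Cd22 were lost (adjusted p from 0.068 to 0.115), without replicate 3 those of Cd79a, Cd79b, Bank1 and Cd22 (0.0594 to 0.135), and against the BLT1-/- pool that of Bank1 (0.0601).

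Some T and NK cell genes fell too. Of 18 T cell markers 2 fell, Cd3g (-0.93) and Cd8b1 (-0.87), and 17 had all lungs below the pool, with a median of -0.46. Both calls were lost without replicate 2 (adjusted p = 0.113 and 0.127), without replicate 3 (0.12 and 0.14) and against the BLT1-/- pool (0.0743 and 0.0591). Of 14 NK and cytotoxic genes 3 fell, Ccl5 among them, and 14 of 14 had all lungs below the pool, with a median of -0.65. Klrd1 (CD94) went from 9.06 to 8.07, 8.09 and 7.67 (-1.12 ± 0.22, adjusted p = 0.03), and the granzyme Gzma from 9.52 to 8.51, 8.81 and 8.38 (-0.96 ± 0.21, adjusted p = 0.0495). Klra8 (Ly49H), an NK receptor outside the list, stood at 8.01 and then at 6.83, 6.96 and 6.41 (-1.28 ± 0.28, adjusted p = 0.0436). The calls of Klrd1, Gzma and Klra8 were lost without replicate 2 (adjusted p from 0.065 to 0.0712) and without replicate 3 (0.0835 to 0.14). The inhibitory receptor Btla, found on B and T cells, fell from 9.50 to 8.58, 8.10 and 8.15 (-1.22 ± 0.18, adjusted p = 0.00743), and P2ry10, a lymphocyte receptor of lysophosphatidylserine, from 9.30 to 8.37, 7.98 and 7.78 (-1.26 ± 0.19, adjusted p = 0.00812). Btla kept its call without each lung and against the BLT1-/- pool, and P2ry10 without each lung but not against that pool (0.0601).

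**Figure D4:**
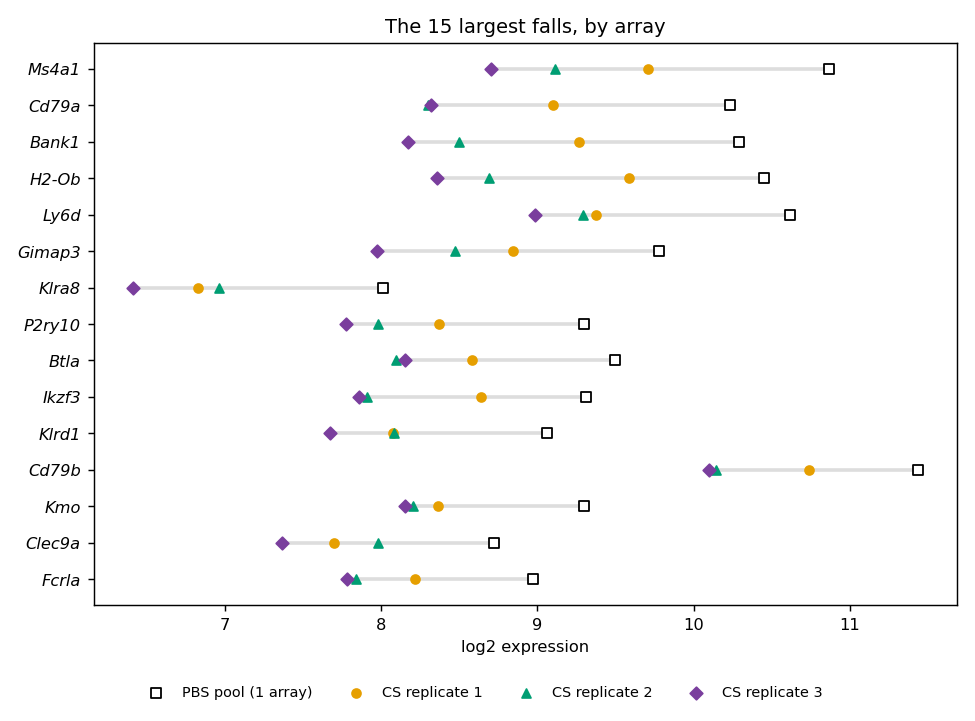
Log2 expression (horizontal) of the 15 genes with the largest falls in the PBS pool (open square) and in CS replicates 1 (circle), 2 (triangle) and 3 (diamond). Every lung lies to the left of the pool, and for Ms4a1 the 3 lungs spread from 8.71 to 9.71 against 10.87.

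Of 17 genes of dendritic cells and MHC class II, 3 fell, with a median of -0.49. H2-Ob, a class II chaperone of B cells, changed by -1.57 ± 0.34, Clec9a, a receptor of cross-presenting dendritic cells, by -1.04 ± 0.20, and Cd209a by -0.94 ± 0.19. For Clec9a the pools disagreed: the BLT1+/+ pool stood at 8.72 and the BLT1-/- pool at 7.99, against which the adjusted p of Clec9a was 0.397, that of Cd209a 0.479 and that of H2-Ob 0.0845. H2-Ob and Cd209a also missed the threshold without replicate 2 (adjusted p = 0.123 and 0.0829) and without replicate 3 (0.107 and 0.089), and Clec9a without replicate 3 (0.0532). Kmo, an enzyme of tryptophan breakdown, fell from 9.30 to 8.36, 8.20 and 8.16 (-1.06 ± 0.13, adjusted p = 0.00186), with the BLT1-/- pool at 8.67 (adjusted p = 0.0945 against it). Gimap3, a GTPase of lymphocytes (-1.35 ± 0.26), Ikzf3, a transcription factor of B cells (-1.18 ± 0.26), and Fcrla of B cells (-1.03 ± 0.18) were also among the 15 largest falls, each without a call when replicate 2 was left out (adjusted p from 0.065 to 0.132), Ikzf3 and Fcrla without replicate 3 (0.138 and 0.0569), and Gimap3 and Fcrla against the BLT1-/- pool (0.055 and 0.0658).

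Genes of other tissues that a dissected lung can carry were measured as well, and none of them passed the main test. Against the mean of both pools 6 heart muscle genes and 1 skeletal muscle gene were called lower. Against the BLT1-/- pool alone 0 genes of these 2 lists were called. Of 14 heart muscle genes 13 had all lungs below the pool, with a summed level of 14.48 in the pool and 13.32 to 14.09 in the lungs. Nppa, the natriuretic peptide of atria, was at -1.60 ± 0.40 (adjusted p = 0.0746, and 0.00798 without replicate 1). Csrp3 of the same list also passed without replicate 1 (adjusted p = 0.00429). With the replicate number as a block, the fat genes Adipoq and Retn passed (adjusted p = 0.0154 and 0.0192). Of 8 fat genes 6 were below in all lungs, with a summed level of 11.56 against 10.58 to 11.02. Thymus genes did not show this: 0 of 8 were below the pool in all lungs, and their summed level was 10.13 in the pool and 10.13 to 10.28 in the lungs. That sum is low for 8 genes, so a fall in them could go unseen. Skeletal muscle, thymus and red blood cell genes had medians of 0.04, 0.04 and -0.01 (-0.14, -0.20 and -0.43 against the BLT1-/- pool; the thymus median was -0.01 after quantile normalization). The heart muscle median was -0.35, -0.82 and -1.05 in replicates 1, 2 and 3 and the B cell median -0.52, -1.11 and -1.34. The part of heart and fat tissue in the falls was not tested.

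Single members passed in several other lists. Of 9 leukocyte adhesion molecules the endothelial selectin Sele rose by 0.84 ± 0.19, with lungs at 8.80, 8.80 and 8.82 against 7.96, and the integrin subunit Itga4 fell by 0.76 on the log2 scale. Of 15 genes of lipid-laden macrophages and lysosomes the cholesterol exporter Abca1 fell by 0.55, and of 19 detoxification enzymes Aox3 fell by 0.68. Junb rose by 0.77 among 17 immediate early genes, Sdf2l1 by 1.04 among 15 genes of the unfolded protein response and Msln (mesothelin) by 0.81 among 7 mesothelial genes. All 7 of these calls were lost without replicate 2 (adjusted p from 0.0712 to 0.13) and without replicate 3 (0.0601 to 0.14), and those of Sele, Aox3, Junb, Sdf2l1 and Msln against the BLT1-/- pool (0.0806 to 0.322).

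The 3 lungs differed in how far they moved. Replicate 1 had 94 genes at least 2-fold above the pool and 23 at least 2-fold below, replicate 2 had 217 and 71, and replicate 3 had 306 and 109. Over the 170 risers the median difference was 0.90, 1.12 and 1.21 in replicates 1, 2 and 3, and replicate 1 was the lowest of the 3 in 141 of them. Over the 62 fallers it was -0.62, -0.79 and -0.96, with replicate 3 the lowest in 50. The lungs were otherwise alike: the difference between any 2 of them had an SD of 0.22 to 0.23 over all genes, with 73 genes at least 2-fold apart between replicates 1 and 3 and 20 between replicates 2 and 3. The widest SD over lungs among the called genes was in Cxcl2 (1.28), followed by Sprr1a (1.07), Hcar2 (1.04), Slc7a11 (0.96), Cxcl3 (0.94) and Il1a (0.91).

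The response of BLT1-/- lungs at day 2 was measured against a pool of its own. No gene passed the test of the difference between the responses (limma, 0 of 19938 in either direction, smallest adjusted p 0.82), while 896 genes had an unadjusted p under 0.05. The median standard error of this difference was 0.20, so only large differences could be seen. All 170 risers and all 62 fallers had the same sign in BLT1-/- lungs, with medians of 1.04 and -0.73 there. The share of all genes with the same sign in both responses was not counted. The change was larger in BLT1+/+ lungs for 87 of the 170 risers and 49 of the 62 fallers, genes that had been chosen by their BLT1+/+ values. Tnf had the largest difference between responses of the 26 cytokines, 1.56 ± 0.55: in BLT1-/- lungs it went from 8.18 to 8.91, 8.81 and 8.74, a rise of 0.64 against 2.21 in BLT1+/+ lungs (unadjusted p = 0.0135, adjusted p = 0.82). Il1f9 (difference 1.74 ± 0.69, unadjusted p = 0.0246) and Acod1 (1.65 ± 0.82, unadjusted p = 0.0645) leaned the same way, with an adjusted p of 0.82 each. So did Ly6g of neutrophils (difference 1.78, unadjusted p = 0.032, adjusted p = 0.82), for which the BLT1+/+ pool stood at 10.05 and the BLT1-/- pool at 10.90. The neutrophil list had medians of 0.30 in BLT1+/+ and -0.30 in BLT1-/- lungs. Mki67 leaned the other way, at 1.60 against 2.07 in BLT1-/- lungs. Tnip3 did as well (1.91 against 3.11), as did the mitosis list with medians of 1.37 and 1.79. The genes with the smallest p were Zfp979, Olfr710, Zfp980 and Zfp935, 3 zinc finger genes and 1 olfactory receptor gene, for which the BLT1+/+ and BLT1-/- pools themselves differed (6.98 and 6.32, 6.58 and 7.25, 5.03 and 4.35, 10.01 and 9.29).

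**Figure D5:**
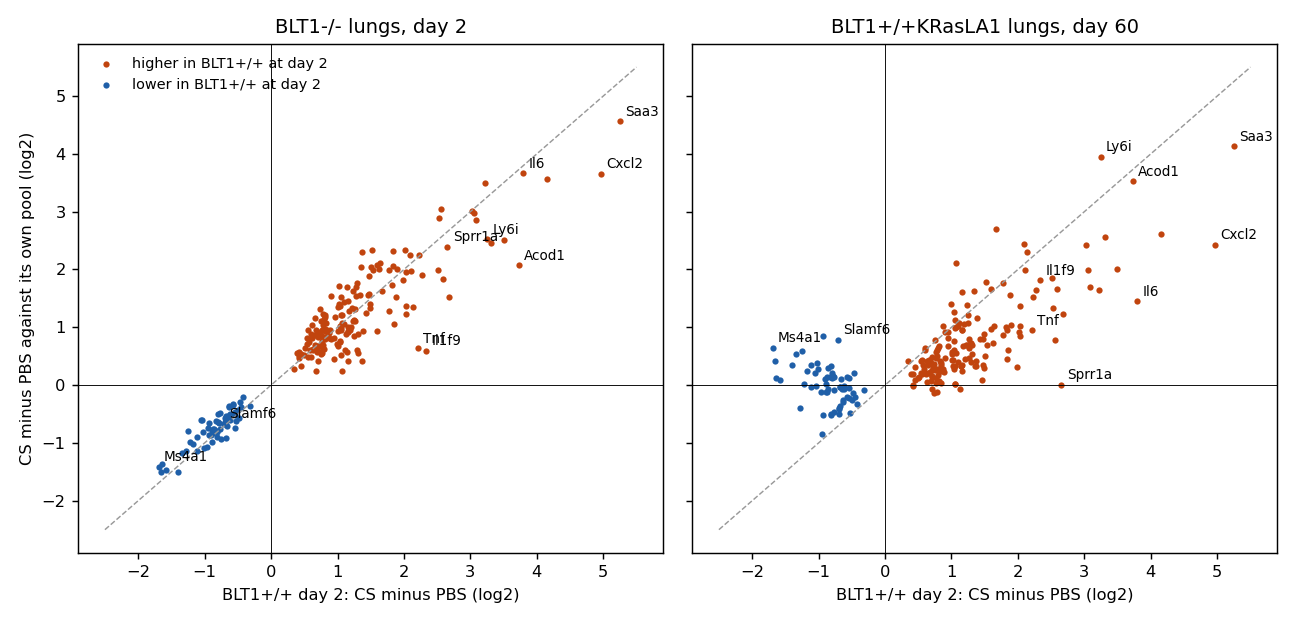
For the 232 genes called in BLT1+/+ lungs at day 2, the response there (log2, horizontal) is set against the response of BLT1-/- lungs at day 2 (left) and of BLT1+/+KRasLA1 lungs at day 60 (right), each against its own PBS pool; the dashed line marks equal responses. Genes higher (red) and lower (blue) keep their sign on the left, while on the right the blue genes gather around 0, with a median of -0.02.

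Compared with BLT1+/+KRasLA1 lungs at day 60, where day and allele cannot be told apart, 0 genes had a higher response at day 2 and 8 had a lower one (0.0401% of genes; 903 genes had an unadjusted p under 0.05). Of the 170 risers 164 had the same sign at day 60, with a median of 0.56, and of the 62 fallers 33, with a median of -0.02. Here too the share over all genes was not counted. Il6 was at 3.79 at day 2 and at 1.45 at day 60 (difference 2.34 ± 0.54, adjusted p = 0.219), and Sprr1a at 2.65 and 0.01 (adjusted p = 0.355). Ly6i stayed high, with 3.25 and 3.95. All 8 genes that passed were lower at day 2, and several are known from B cells and plasma cells. Jchain, which joins secreted antibodies, stood at 9.44 in the day 2 pool and at 8.34, 8.29 and 8.10 in the lungs, and at day 60 at 9.64 in the pool and at 12.64, 12.91 and 12.24 in the lungs (difference -4.15 ± 0.42, adjusted p = 0.00344). Slamf6, a receptor of lymphocytes, fell at day 2 (-0.71 ± 0.13) and was at 0.78 at day 60 (difference -1.50 ± 0.18, adjusted p = 0.0146). P2ry10 (-1.26 and 0.59) and Kmo (-1.06 and 0.21) also differed (adjusted p = 0.037 each). At day 60 replicate 2 had Xist at 6.61 and Eif2s3y at 10.09, and the pool had Eif2s3y at 9.68, unlike the day 2 arrays, so sex also differs in this comparison. Without that lung 3 genes were higher and 7 lower. The 8 became 1 without BLT1+/+ CS replicate 2, 2 without replicate 3 and 1 without day 60 replicate 1, but 35 (and 8 higher) without BLT1+/+ CS replicate 1 and 28 without day 60 replicate 3; Jchain stayed past the threshold in each of these fits (adjusted p from 0.000875 to 0.0216).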

How the data were processed

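The values were log2 expression levels per probe set that the authors deposited in 1 table of 16 arrays, made by RMA; the submitters' processing notes name Partek 6.6. RMA equalizes the probe intensities of arrays before it summarizes them, and the deposited medians ran from 8.25 to 8.34. A shift in the total RNA of a lung is therefore largely hidden, and differences of dim probe sets may come out too small. The name of the array is not given in the sources used. The gene of each probe set was taken from the platform annotation, and of 35556 probe sets 21789 carried 1 symbol. For genes with several, the one brightest on average over the 16 arrays was kept, which left 19938 genes. The gene mutated in KRasLA1 was not analysed here.

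A mean for each of the 8 groups was estimated over the 16 arrays by lmFit of limma 3.58.1 (R 4.3.3), and variances were moderated by eBayes with a trend in mean level. Tests were two-sided, and p-values were adjusted by Benjamini-Hochberg over 19938 genes, with 0.05 as the threshold. The 8 residual degrees of freedom come from CS lungs, joined by 5.4 prior ones. The fit was tested on simulated data in which the pool had the spread of a CS lung, so that assumption itself was not tested. Precision is limited by the number of arrays, with a median SE of 0.14. CS lungs of the same number deviated together between BLT1+/+ and BLT1-/- at day 2 (r = 0.43, 0.20 and 0.34 over genes). For lungs of different numbers r ran from -0.40 to 0.10. Deviations from a group mean cancel out over its 3 lungs, so these r values are tied to those of the same number. The labels state no pairing, and whether 3 lungs per group could match so by chance was not tested. The fit with a block is therefore given only beside the counts, and the pools carry no number.

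The comparison and the 53 gene lists (792 members, 738 measured) were chosen with earlier results of these data known. The rule for named genes takes the 20 largest rises and 15 largest falls past the threshold that are not predicted genes, small RNAs, pseudogenes or receptor segments, up to 4 members of a list by p (2 where none passed), the 6 widest ranges between lungs, and for each difference between responses the 8 smallest p past the threshold or else 4. Other genes named were chosen after their values were seen. Summed levels are log2 of the sum of linear values. Alternatives changed the arrays fitted, the prior, array weights, scaling, the filter on low values, the probe set rule, the control pool, the block and the lungs left out.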

Additional observations from a re-analysis of the deposited data

Results flagged for a closer look

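The difference between the day 2 response of BLT1+/+ lungs and the day 60 response of BLT1+/+KRasLA1 lungs passed the test for 8 genes, each with the lower response at day 2. It was -4.42 for Igkv10-96 and -4.14 for Igkv4-55, both variable segments of the kappa light chain, -4.15 for Jchain, and -1.96 for Mzb1, a chaperone of antibody-secreting cells. It was -1.85 for P2ry10, -1.50 for Slamf6, -1.27 for Kmo and -1.13 for Ccr6, a chemokine receptor. Only P2ry10, Slamf6 and Kmo of these also fell at day 2 by their own test.

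Among 1621 probe sets with several gene symbols, which no gene comparison used, 15 passed the threshold, 12 higher and 3 lower, when added to the fit. Of those higher, 10 carried the same 12 histone H3 symbols (0.88 to 0.95), 1 carried the Sprr2a and Sprr2b genes (1.73 ± 0.29, adjusted p = 0.0174) and 1 Tmigd3 and Adora3 (0.97). Those lower carried sodium channel genes (-1.09 and -1.10) or the kappa constant gene with variable segments (-1.11).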

How the results depend on the processing

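The 170 higher and 62 lower genes of the BLT1+/+ response became 75 and 18 with the 8 day 2 arrays alone, 371 and 118 with the 4 arrays alone, and 103 and 31 without the variance trend. They became 474 and 256 with the replicate block, and 727 and 333 against the mean of both pools; against the BLT1-/- pool 322 were higher, and array weights gave 110 lower. Leaving out 1 CS lung gave 50 to 463 higher and 14 to 222 lower genes. Other scalings, the filter, the probe set rules and a robust prior kept both counts within 1.5 times. The BLT1 by silica interaction gave 0 genes in every fit run. Of the 8 genes with a lower response at day 2 than at day 60, 5 were left without the trend, 5 with a robust prior, 3 with cyclic loess and 2 among genes above the median level; the block gave 40 (and 6 higher), array weights 28 (and 1 higher), and leaving out 1 lung 1 to 35 (and 0 to 8 higher). Of 93 named calls, 45 stayed past the threshold with the 8 day 2 arrays alone, 64 against the BLT1-/- pool, 33 without replicate 2 and 44 without replicate 3, and all 93 with the block. Values that turned sign were of genes that had not passed: against the BLT1-/- pool Zfp979 was at 0.30, Olfr710 at -0.42 (-0.086 against both pools), Zfp980 at 0.23, Zfp935 at 0.34, Mzb1 at 0.021, Cyba at -0.20, Cd55 at 0.088, Cdhr3 at 0.093, Prss16 at -0.20 and Ptcra at -0.16, and leaving out 1 lung gave Alas2 from -0.76 to 0.10. The cause of these shifts was not tested. Depth does not apply to arrays; a single control array limits all values.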

Other observations

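Several genes outside the lists rose clearly and were chosen after their values were seen. Ch25h and Cyp7b1, enzymes that act in sequence to make an oxysterol ligand of GPR183, both rose: Ch25h from 8.55 to 9.71, 10.20 and 10.30 (1.52 ± 0.21, adjusted p = 0.00596) and Cyp7b1 from 8.25 to 9.87, 10.56 and 10.37 (2.02 ± 0.24, adjusted p = 0.00219). Their receptor Gpr183 was at -0.33 ± 0.11 (adjusted p = 0.206). Prg4 (lubricin) rose by 1.99 ± 0.31, Clec4n (dectin 2) by 2.03 ± 0.32, Steap4, a metalloreductase, by 1.60 ± 0.24 and Tgm1, a transglutaminase of the cornified envelope, by 1.90 ± 0.32 (adjusted p = 0.065 without CS replicate 2). Ctps, which makes CTP, rose from 9.48 to 10.64, 11.13 and 11.09 (1.47 ± 0.19, adjusted p = 0.00321), and the polymeric immunoglobulin receptor Pigr by 0.99 ± 0.16 (0.051 without replicate 2). Fgl1 rose from 6.91 to 7.92, 8.10 and 8.12 (1.14 ± 0.12, adjusted p = 0.000851).

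Among the falls outside the lists, Arhgap15, a Rac regulator of leukocytes, went from 10.05 to 9.29, 9.17 and 9.01 (-0.90 ± 0.14, adjusted p = 0.0111) and Gask1b from 11.03 to 10.50, 10.42 and 10.27 (-0.63 ± 0.10, adjusted p = 0.011). Satb1, a chromatin organizer of T cells, fell by 0.88 on the log2 scale (adjusted p = 0.0497), and Cpm, a carboxypeptidase of alveolar cells and macrophages, by 0.89 (0.0424); both missed the threshold without replicate 2 (0.123 and 0.0994) and without replicate 3 (0.122 and 0.109). Chl1, a cell adhesion molecule of the L1 family, had one of the largest rises, from 6.31 to 8.69, 9.58 and 9.82 (3.05 ± 0.54, adjusted p = 0.0189; 0.0698 without replicate 2 and 0.06 without replicate 3).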
